A study of Mus musculus with 6 samples.

Results

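Integrins are receptors made of 1 alpha and 1 beta chain, and a chain reaches the cell surface only after it has paired with a partner. The 10 chain genes described here are those whose products make up the best-known integrins of myeloid and platelet lineages: Itga2b, Itgb3, Itgav, Itga4, Itga5, Itga6, Itgb1, Itgal, Itgam and Itgb2. They were taken by name, through every probe set that the platform annotation gives to one of these symbols alone, which gave 29 of the 45101 probe sets on the Affymetrix Mouse430_2 array, for 10 of the 18193 genes with such a probe set. The samples were 32D cells, a line of myeloid progenitors that needs interleukin-3 and that comes from the bone marrow of a C3H/HeJ mouse infected with Friend leukaemia virus. Of 6 samples, 3 were mock-transduced with the retroviral vector MSCVpuro and 3 were transduced with Nup98::Nsd1, a leukaemia fusion of a nuclear pore gene with a histone methyltransferase gene. The labels do not say whether a transduced population was a pool or a clone, or whether the 3 samples of a group were separate cultures. The p-values therefore reflect the spread between these samples alone, which may be technical.

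Integrins bind matrix proteins or counter-receptors on other cells, and they switch between a low and a high affinity state when talin and kindlin bind the tail of the beta chain. In blood cells, α4β1 and α5β1 hold progenitors to the marrow stroma, αLβ2 and αMβ2 serve leukocyte adhesion and uptake of complement-coated particles, and αIIbβ3 is the fibrinogen receptor of platelets. The beta chain sets the family: β1 pairs with many alpha chains, β3 with αIIb and αv, and β2 with αL, αM, αX and αD. The series asks what the fusion does to gene expression, and for these genes the comparison is between transduced and mock cells. The authors' values are MAS5 signals, which are intensities on a linear scale, with a call (Present, Marginal or Absent) for whether the target was detected, and a signal can be compared between arrays but not between probe sets.

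The beta chains moved in opposite directions. Itgb3 rose 11.8-fold, from a mock level near the edge of detection, and Itgb1 fell to a level 2.37-fold lower. Itgb2 stood 1.27-fold higher as deposited, but at a log2 fold change of -0.022 with scaling to the hybridization controls. Of the alpha chains, Itga2b rose 2.23-fold, Itgal 1.89-fold, Itgav 1.72-fold and Itga4 1.45-fold, each at its brightest tested probe set. Itga6, Itgam and Itga5 did not pass the test at theirs, with log2 fold changes of -0.0081, 0.077 and -0.35. Dimmer probe sets did not all follow. Of these, 2 of Itga4 were called lower, 1 of Itgal and 1 of Itgav were not called, and 1 of Itga6 was higher. Fold changes are Nup98::Nsd1 over mock from limma, with Benjamini-Hochberg adjustment over all tested probe sets and calls made at an adjusted p under 0.05.

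To be tested, a probe set had to be Present on the 3 arrays of one group or the other, and 19 of the 29 were. Of the 10 that were not tested, 5 were Present on no array; the filter admits a probe set through its higher group, so the 19 are not all the probe sets of these genes. Among the 19, 9 were called higher and 5 lower, beside a background in which 69.9% of the 20494 tested probe sets were called, 42.3% higher and 27.6% lower. The groups did not overlap at 14 of the 19, against 73.2% of all tested probe sets. Both shares of integrin probe sets are near the background, so the number of calls is no result about integrins, and what follows describes sizes and directions. Counted by gene, 7 of 10 were called, beside 72.3% of 9641 genes, and 6 were higher and 1 was lower, beside 42.9% and 29.5%. The median log2 fold change was 0.23 over the 19 probe sets and 0.15 over all tested ones, and 0.44 over the 10 genes against 0.12 over all genes. Values on the deposited scale are not corrected for that median of 0.15 over all tested probe sets. Whether it is a shift common to all of them was not tested. The median was -0.009 with quantile normalization, -0.018 with median centring, -0.045 with 75th percentile centring and -0.21 with scaling to the hybridization controls. Under the same scalings the integrin probe sets called higher and lower were 7 and 6, 7 and 6, 5 and 7, and 5 and 9.

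**Figure D1:**
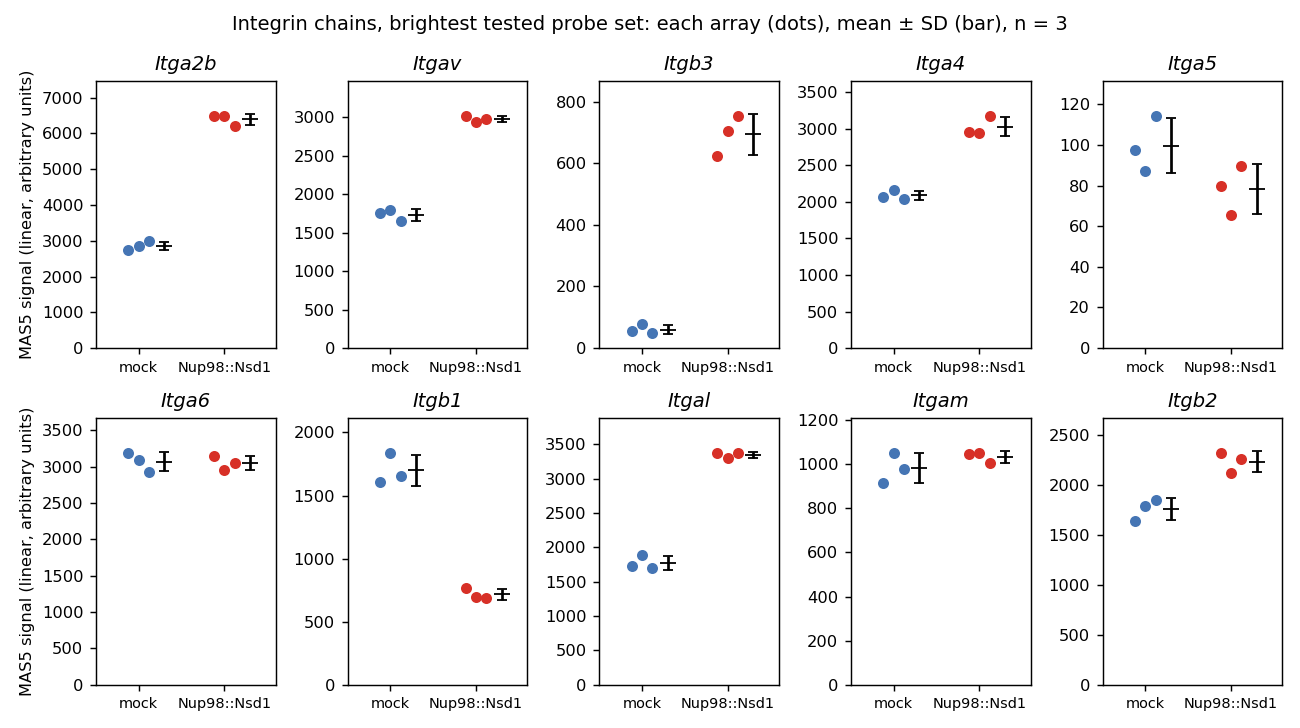
MAS5 signal (linear axis from 0, arbitrary units) of each integrin chain at its brightest tested probe set; dots are single arrays and bars the mean ± SD of 3. The groups lie apart for Itga2b, Itgav, Itgb3, Itga4, Itgb1, Itgal and Itgb2 and overlap for Itga5, Itga6 and Itgam.

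The groups differed in array quality. Between 45.0% and 45.8% of probe sets were Present on the mock arrays and between 47.5% and 48.2% on the Nup98::Nsd1 arrays. For Actb, the control probe sets at the 3' end read 1.18 ± 0.03 times those at the 5' end in mock samples and 1.47 ± 0.026 times in Nup98::Nsd1 samples (mean ± SD, n = 3), a measure of how intact the labelled RNA is, and for Gapdh 0.760 ± 0.0156 and 0.816 ± 0.0235 times. On neither measure did the groups overlap. Their part in the results was not tested. Of the fusion partners, Nup98 was Present on all arrays at both probe sets and called higher at each (log2 fold changes 0.52 and 0.47, adjusted p = 0.0015 and 6.19e-06). Whether these probe sets bind the fusion transcript was not tested. Each of 4 Nsd1 probe sets was Absent on all 6 arrays, so Nsd1 does not check the labels. Of 10 myeloid progenitor markers, 8 were tested, 4 higher and 3 lower, where 42.9% and 29.5% of all genes were. Kit and Cd34 were Present on no array. The summed signal of these 10 genes ran from 46717 to 49523 on mock and from 32977 to 33597 on Nup98::Nsd1 arrays, a difference carried by Mpo (19095 to 5183) and Prtn3 (9202 to 4878), which encode granule proteins. In bulk RNA, fewer cells of a type and less RNA per cell cannot be told apart.

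Itgb3 encodes β3, the chain shared by the platelet integrin αIIbβ3 and the vitronectin receptor αvβ3. Its brighter probe set, 1455257_at, gave signals of 54.4, 77.3 and 47.7 on the mock arrays and 622, 704 and 754 on the Nup98::Nsd1 arrays. The groups lay far apart. The mean went from 59.8 ± 15.5 to 693 ± 66.4 (SD, n = 3; log2 fold change 3.56, SE 0.179, adjusted p = 1.31e-08). In mock cells the level was near the edge of detection, since 2 of the 3 mock arrays were called Present and the detection p-values of the mock arrays were 0.0461, 0.0303 and 0.112, against 0.000244 on each Nup98::Nsd1 array. This probe set passed the detection filter only through the Nup98::Nsd1 arrays. Adding 64 to every signal before the logarithm brought the log2 fold change down to 2.62. The second probe set, 1421511_at, was Absent on all 6 arrays and was not tested; its signals were 5.66, 9.19 and 6.23 against 131, 81.8 and 65.7.

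Itga2b encodes αIIb (CD41), which pairs with β3 alone and is also present on early haematopoietic progenitors. Its one probe set was Present on all arrays, at 2754, 2858 and 2980 on mock and 6475, 6489 and 6217 on Nup98::Nsd1 arrays. The groups were wide apart beside the spread within each, with means of 2864 ± 113 and 6394 ± 153 (log2 fold change 1.16, SE 0.0441, adjusted p = 1.63e-09). So Itga2b was well detected in mock cells, where its partner Itgb3 was near the limit of detection.

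Itgav encodes αv, the partner of β1, β3, β5, β6 and β8. Its brightest probe set gave 1755, 1791 and 1648 on mock and 3017, 2944 and 2972 on Nup98::Nsd1 arrays (log2 fold change 0.78, SE 0.0476, adjusted p = 5.72e-08). Of its other probe sets, 1432296_a_at was called higher as deposited (74.1 ± 19.1 to 117 ± 11.1, log2 fold change 0.69, adjusted p = 0.0215). That call ended without mock replicate 2, without Nup98::Nsd1 replicate 1 or 2 (log2 fold changes of 0.46, 0.66 and 0.63), without the detection filter and under each other scaling. The probe set 1421198_at was not called (204 ± 10.1 to 253 ± 52.5, adjusted p = 0.117), but was called at 0.47 without Nup98::Nsd1 replicate 2, whose signal of 196 lay within the mock range of 195 to 215. The remaining pair of probe sets was not tested, at means of 30.2 and 20.4 on mock against 62.1 and 58.0 on Nup98::Nsd1 arrays.

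Itgb1 encodes β1, the commonest beta chain. Its brightest probe set, 1452545_a_at, gave 1605, 1841 and 1653 on mock and 767, 694 and 691 on Nup98::Nsd1 arrays (log2 fold change -1.24, SE 0.0696, adjusted p = 2.96e-08). The next, 1426918_at, gave 1301, 1249 and 1259 against 598, 612 and 576 (log2 fold change -1.09, adjusted p = 2.58e-08). At both, each Nup98::Nsd1 array lay below each mock array, and at no tested probe set was Itgb1 higher. Another, 1427771_x_at, whose suffix marks probes that can bind other transcripts, fell by 0.69 on the log2 scale (171 ± 40.3 to 107 ± 25.2, adjusted p = 0.0177), a call lost without mock replicate 1 or Nup98::Nsd1 replicate 1 (-0.51 and -0.48). The other 3 probe sets were not tested and had means between 17.9 and 27.8 on mock arrays. A called fall of at least 2-fold was seen at 2 of the 19 integrin probe sets, both of Itgb1, beside 3.13% of all tested probe sets (2.6% of genes), and a rise of that size at 2, of Itgb3 and Itga2b, beside 12.8% (9.53% of genes).

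**Figure D2:**
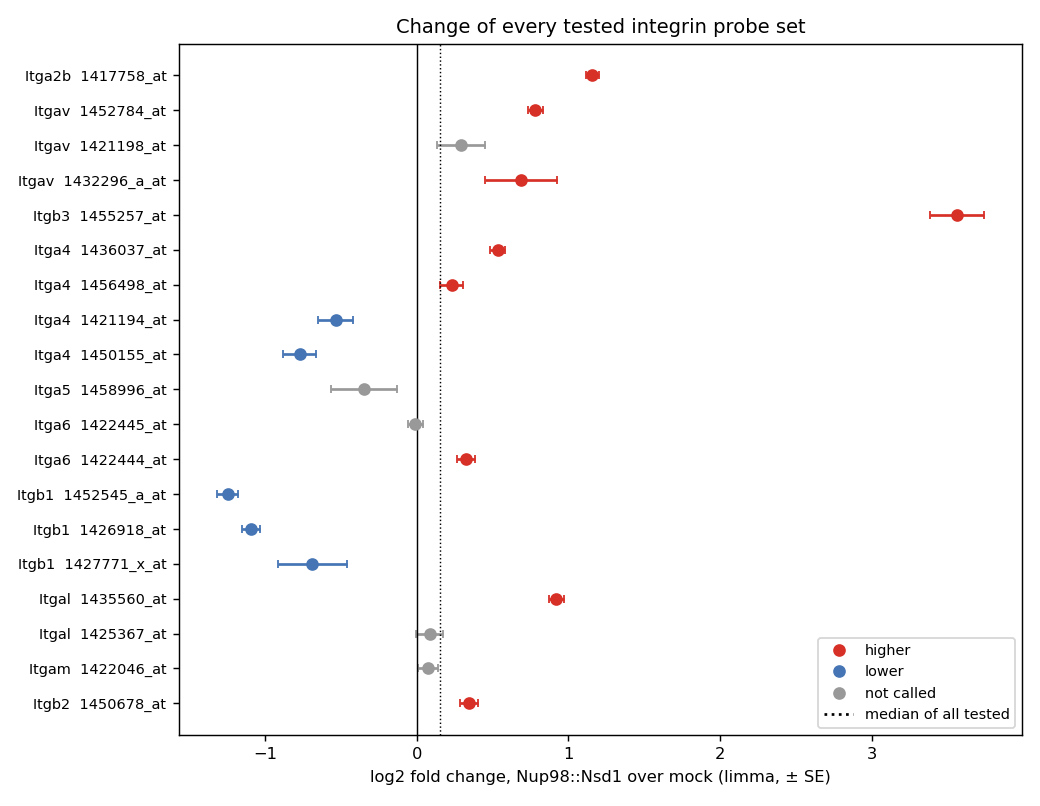
Log2 fold change (Nup98::Nsd1 over mock, limma, bars ± SE) of each of the 19 tested integrin probe sets, with the dotted line at the median of all tested probe sets. Itgb3 stands at 3.56, the 3 Itgb1 probe sets lie below 0, and the 4 of Itga4 fall on both sides.

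Promoter sequences from RefSeq (build GRCm38.p6), each 250 bases before and 50 after the start of the gene, were available for 6 of the 10 members. The promoters below are those of Itga2b and Itgav, which encode the alpha partners of β3 and rose, and of Itgb1, which fell, at chr11:102469834-102470133 (minus strand), chr2:83724147-83724446 (plus strand) and chr8:128685404-128685703 (plus strand). Capitals mark matches, on either strand, to a GATA motif (AGATAA), an ETS motif (CCGGAA) or an Sp1 motif (GGGCGG), which do not overlap here.
Itga2b: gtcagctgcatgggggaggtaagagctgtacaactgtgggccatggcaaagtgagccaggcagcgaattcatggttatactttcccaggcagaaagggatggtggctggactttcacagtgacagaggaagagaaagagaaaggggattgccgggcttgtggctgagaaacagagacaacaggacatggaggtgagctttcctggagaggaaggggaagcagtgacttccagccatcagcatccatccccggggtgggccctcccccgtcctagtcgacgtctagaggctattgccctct
Itgav: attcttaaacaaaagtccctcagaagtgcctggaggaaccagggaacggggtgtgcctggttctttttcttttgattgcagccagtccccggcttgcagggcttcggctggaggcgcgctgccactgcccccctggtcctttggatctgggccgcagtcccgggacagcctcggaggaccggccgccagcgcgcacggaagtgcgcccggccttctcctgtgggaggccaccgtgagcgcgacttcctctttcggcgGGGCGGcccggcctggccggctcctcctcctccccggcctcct
Itgb1: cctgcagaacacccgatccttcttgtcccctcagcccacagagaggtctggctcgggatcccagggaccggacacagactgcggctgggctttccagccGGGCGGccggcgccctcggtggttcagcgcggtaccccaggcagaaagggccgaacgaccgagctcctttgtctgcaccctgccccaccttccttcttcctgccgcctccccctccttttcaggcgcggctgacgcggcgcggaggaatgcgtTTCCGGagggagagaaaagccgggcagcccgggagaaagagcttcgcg
The Itga2b window held none of these letters, that of Itgav held 1 Sp1 motif, and that of Itgb1 held 1 Sp1 and 1 ETS motif. Of 32851 promoters of the same length, 11.2% held the GATA, 14.9% the ETS and 35.7% the Sp1 motif. Of these bases, 56.0%, 67.3% and 67.3% were G or C, beside a median of 52.7% over all promoters. No match says only that the letters are not in this window.

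Itga4, the α4 chain of the VCAM-1 receptor, was the single member whose probe sets were called in both directions. The brightest, 1436037_at, gave 2064, 2159 and 2036 on mock and 2955, 2945 and 3174 on Nup98::Nsd1 arrays (log2 fold change 0.54, SE 0.0486, adjusted p = 1.54e-06). A second, 1456498_at, was also called higher (593 ± 46.6 to 694 ± 10.9, log2 fold change 0.23, adjusted p = 0.0179), but not without mock replicate 1 or 2 (0.21 and 0.19), and not under the other scalings, one of which turned it to -0.13. The probe sets 1421194_at and 1450155_at fell, from 332 ± 24.3 to 229 ± 19.6 and from 337 ± 8.86 to 198 ± 9.88 (log2 fold changes -0.53 and -0.77, adjusted p = 0.00146 and 6.19e-05). In each of these 4 probe sets the groups did not overlap. The probe set 1421194_at was Present on 1 Nup98::Nsd1 array, so it passed the detection filter only through the mock arrays. The pair that fell is annotated to the RefSeq mRNA of the gene and the pair that rose to expressed sequence tags. The fifth probe set, 1427615_at, was Present on 1 mock array and not tested, at means of 21.1 and 23.4. The data therefore give no single direction for Itga4, and the fold change of its brightest probe set is that of the transcripts this probe set binds.

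Itga6 encodes α6, a laminin-binding chain. Its brightest probe set overlapped between the groups (3192, 3085 and 2928 against 3151, 2957 and 3043; log2 fold change -0.0081, SE 0.0478, adjusted p = 0.888). It was called lower with hybridization control scaling (-0.37) and when arrays were centred on the 75th percentile (-0.20) or the median (-0.18), and not with quantile normalization (0.092). The other probe set rose from 1202 ± 65.9 to 1507 ± 70.1 (log2 fold change 0.33, adjusted p = 0.00046). That rise was 0.13 and no longer called with 75th percentile centring, and -0.039 with hybridization control scaling. Itga5, the fibronectin-binding α5 chain, was hardly detected: 3 of its 4 probe sets were Absent on every array, at means of 97.8, 48.0 and 40.6 on mock and 101, 58.2 and 27.9 on Nup98::Nsd1 arrays, and the tested one gave 97.6, 87.2 and 114 against 79.9, 65.6 and 89.9 (log2 fold change -0.35, SE 0.217, adjusted p = 0.17), with overlapping groups. It was called lower with quantile normalization (-0.76), 75th percentile centring (-0.55) and hybridization control scaling (-0.71).

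Of the β2 family, Itgb2 encodes the common chain CD18, Itgal the αL chain of LFA-1 and Itgam the αM chain CD11b. Itgb2 gave 1636, 1789 and 1852 on mock and 2321, 2117 and 2255 on Nup98::Nsd1 arrays (log2 fold change 0.34, SE 0.0587, adjusted p = 0.000261), and the groups did not overlap. The rise was not called with 75th percentile centring (0.15) and was -0.022 with hybridization control scaling. Itgal rose at its brighter probe set, from 1726, 1881 and 1706 to 3377, 3297 and 3367 (log2 fold change 0.92, SE 0.0496, adjusted p = 2.22e-08). At its dimmer one it gave 385 ± 29.2 and 408 ± 5.76 (log2 fold change 0.085, adjusted p = 0.425), and this value was negative under each other scaling and called lower with hybridization control scaling (-0.28, adjusted p = 0.0405), so the rise of Itgal rests on 1 of its 2 probe sets. Itgam gave 914, 1053 and 980 on mock against 1048, 1052 and 1004 on Nup98::Nsd1 arrays (log2 fold change 0.077, SE 0.0656, adjusted p = 0.314). Its groups overlapped, and with hybridization control scaling it was called lower, at -0.29. Of 5 macrophage markers, 3 were tested, of which 2 were called higher and 1 lower, where 42.9% and 29.5% of all genes were. The summed signal of the 5 ran from 3835 to 4049 on mock and from 4301 to 4474 on Nup98::Nsd1 arrays. Marco was Present on no array.

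**Figure D3:**
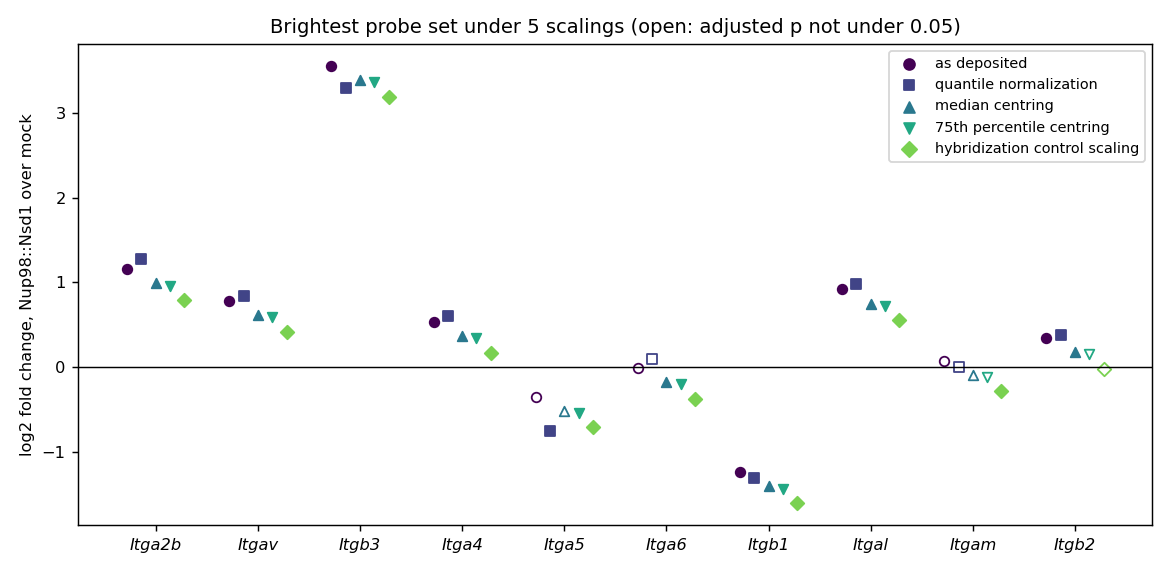
Log2 fold change of each integrin chain at its brightest tested probe set under 5 scalings of the arrays, with open symbols where the adjusted p was not under 0.05. Itgb3, Itga2b, Itgal and Itgav stay above 0 and Itgb1 below it at each scaling shown, while Itgb2, Itgam and Itga6 cross 0.

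Because a chain needs its partner, the change of each alpha chain was set against that of its beta chain within each array. This ratio of signals cancels any factor that scales a whole array; its size has no meaning, as it joins different probe sets, and only its change between groups is given. In each of 8 pairs the ratios of the groups did not overlap. The two-sided exact permutation p was then 0.1, the smallest that 3 arrays against 3 allow, and says the same. The pairs share chains, and 75.1% of all tested genes, taken singly, had groups without overlap. The count of 8 is therefore no result about pairing, and the share among ratios of other genes was not computed.

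Both alpha partners of β3 fell behind it. Relative to the mock mean, the log2 ratio of Itga2b to Itgb3 was 0.05, -0.40 and 0.35 on mock and -2.23, -2.41 and -2.57 on Nup98::Nsd1 arrays, a change of -2.40 (SE 0.24, n = 3). The ratio of Itgav to Itgb3 changed by -2.78 (SE 0.198). Both alpha chains themselves rose, so the 3 chains of these 2 integrins moved the same way by unequal amounts, Itgb3 by most. With 64 added to each signal the changes were -1.47 and -1.86, over 1.5 times smaller for the former.

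The ratios of the alpha partners of β1 to it went the other way. All 4 share Itgb1, which fell, and Itga6 and Itga5 themselves were not called at their brightest probe sets. The ratio of Itgav to Itgb1 was 0.10, -0.068 and -0.033 on mock and 1.95, 2.06 and 2.08 on Nup98::Nsd1 arrays, a change of 2.03 (SE 0.0648). That of Itga4 to Itgb1 changed by 1.78 (SE 0.0826), that of Itga6 by 1.24 (SE 0.0782) and that of Itga5 by 0.89 (SE 0.21). Over each combination of tested probe sets, the change ran from 0.98 to 2.03 for Itgav, from 0.68 to 1.57 for Itga6 and from 0.34 to 0.89 for Itga5. For Itga4 it ran from -0.081 to 1.78 over 12 combinations, and averaging the probe sets of each gene gave 0.87, so its size depends on the probe sets taken. None of the 4 alpha chains that pair with β1 was lowered to the extent of Itgb1 at its brightest probe set.

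In the β2 family the differences were smaller. The ratio of Itgal to Itgb2 changed by 0.58 (SE 0.0705) with the brighter Itgal probe set and by -0.26 with the dimmer, and averaging both gave 0.16. The ratio of Itgam to Itgb2 was 0.0013, 0.076 and -0.077 on mock and -0.31, -0.17 and -0.33 on Nup98::Nsd1 arrays, a change of -0.27 (SE 0.0668). Taken singly, Itgam and Itgb2 each changed sign under another scaling of the arrays.

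**Figure D4:**
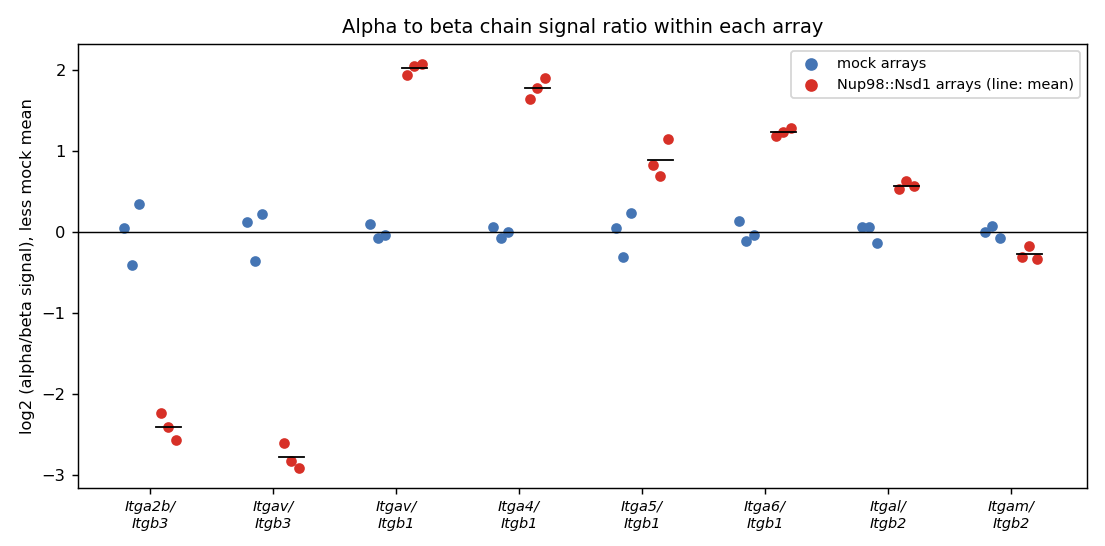
Log2 ratio of alpha to beta chain signal in each array, less the mock mean, for 8 pairs (dots, single arrays; line, mean of the Nup98::Nsd1 arrays). Ratios to Itgb3 changed by -2.40 and -2.78, while the 4 ratios to Itgb1 lie above those of the mock arrays.

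The chains outside the 10 could offer other partners, and most were not detected. Of 16 further chains, 14 had a probe set with a single symbol, 8 of these were Present on no array, and 2 were tested. Itgb7, the β7 chain that pairs with α4 in the gut-homing integrin α4β7, gave 465, 473 and 446 on mock and 1129, 1143 and 1128 on Nup98::Nsd1 arrays (2.46-fold, log2 fold change 1.30, SE 0.064, adjusted p = 1.14e-08). It rose while Itgb1, the other partner of α4, fell, and each array of one group lay outside the range of the other. The log2 ratio of Itga4 to Itgb7, a pair added after its values were seen, changed by -0.76 (SE 0.0416). Itgae, the αE partner of β7, averaged 68.2 ± 1.70 on mock and 80.5 ± 3.52 on Nup98::Nsd1 arrays (log2 fold change 0.24, adjusted p = 0.326). Itgb5, a partner of αv, was not tested and is named after its values were seen: at its brightest probe set it was Present on 1 mock and 2 Nup98::Nsd1 arrays, at 84.6, 72.4 and 88.4 against 133, 198 and 317. Of the further partners of the members, Itgb4, Itgb6, Itgb8 and the β2 partner Itgax were Present on no array. The same held for the alpha chains Itga1, Itga2, Itga7 and Itga8. Itga3, Itga9 and Itga10 were Present on some arrays but not tested, and Itga11 and Itgad had no probe set with a single symbol.

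Genes listed for integrin activation and as adaptors, not all of which activate integrins, were mostly detected. Of 28 measured activation and adaptor genes, 25 were tested, 16 rose and 4 fell, where 42.9% of all genes were higher and 29.5% lower. These counts became 10 and 8 with 75th percentile or median centring, 7 and 13 when scaled to the hybridization controls, and 15 and 4 with quantile normalization. Over all tested probe sets the counts moved alike, from 8678 higher and 5657 lower to 6350 and 7813 with 75th percentile centring, 6646 and 7477 with median centring and 4573 and 9586 on the hybridization control scale. Their median log2 fold change was 0.25, beside 0.12 over all genes. Tln1, the talin that opens integrins from inside the cell, rose 2.27-fold (2269 ± 67.1 to 5150 ± 130, adjusted p = 1.34e-09) and was called higher at all 3 of its tested probe sets. Zyx, the focal adhesion protein zyxin, rose 2.33-fold (adjusted p = 1.56e-08) and Ilk, a pseudokinase that links beta tails to actin, 2.23-fold (adjusted p = 1.23e-07). Flna, the actin crosslinker filamin A, which competes with talin for beta tails, rose 1.64-fold (adjusted p = 2.66e-07). Each of these 4 stayed called higher under every other scaling. The 4 that fell were Actn1, Rasgrp2, Vcl and Skap2, at log2 fold changes of -0.56, -0.47, -0.28 and -0.12 at their brightest probe sets. Skap2 was also called higher at another probe set. Among the 16 that rose, Parvb passed the detection filter only through the Nup98::Nsd1 arrays.

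Of 9 measured membrane proteins that associate with integrins, 6 rose and 2 fell, where 72.3% of all genes were called in either direction. The counts were 7 and 2 with quantile normalization, 4 and 3 with 75th percentile or median centring and 4 and 4 with scaling to the hybridization controls. Their median log2 fold change was 0.22. The tetraspanin Cd82 rose 2.80-fold (2065 ± 71.5 to 5778 ± 205, adjusted p = 4.05e-10) and Cd151, a tetraspanin that binds laminin-binding integrins, 2.02-fold (adjusted p = 1.31e-08). The tetraspanin Cd81 was 1.77-fold lower (2498 ± 131 to 1410.4 ± 44.2, adjusted p = 9.29e-08). Slc3a2, the CD98 heavy chain that binds β1 and β3 tails, rose 1.51-fold (adjusted p = 2.88e-07).

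Among integrin ligands, 23 of 25 genes were measured and 8 tested, of which 6 rose and the other 2 were not called; scaling to the hybridization controls gave 4 higher and 1 lower. Over all genes, 42.9% were higher. Lama5 and Vwf, both called higher, and Jam2, not called, passed the detection filter only through the Nup98::Nsd1 arrays. With Present on all 6 arrays required, 4 ligand genes were higher. The median log2 fold change, with Lama5, Vwf and Jam2 included, was 0.64, beside 0.12 over all genes. Icam1 and Icam2, which bind αLβ2, rose 1.72-fold (597 ± 13.1 to 1026 ± 23.0, adjusted p = 4.94e-07) and 1.35-fold (adjusted p = 7.18e-06), the latter at a log2 fold change of 0.069 and not called with hybridization control scaling. Mfge8, a bridging protein with an RGD site for αv integrins, rose 1.88-fold (adjusted p = 1.55e-06) and F11r, the junctional adhesion molecule JAM-A, 1.59-fold (adjusted p = 7.32e-06). Vwf, which encodes von Willebrand factor, a ligand of αIIbβ3, was singled out after its values were seen: it gave 33.1, 37.0 and 7.44 on mock and 280, 307 and 340 on Nup98::Nsd1 arrays, and was Present on 2 mock arrays (log2 fold change 3.88, SE 0.491, adjusted p = 2.43e-05; 2.07 with 64 added). Without mock replicate 3, the lowest array, its log2 fold change was 3.14 (adjusted p = 1.61e-07). The fibrinogen chains Fga, Fgb and Fgg, fibronectin Fn1 and vitronectin Vtn were Present on no array, and the brightest probe set of Vcam1, the α4β1 ligand, on 1 mock array.

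**Figure D5:**
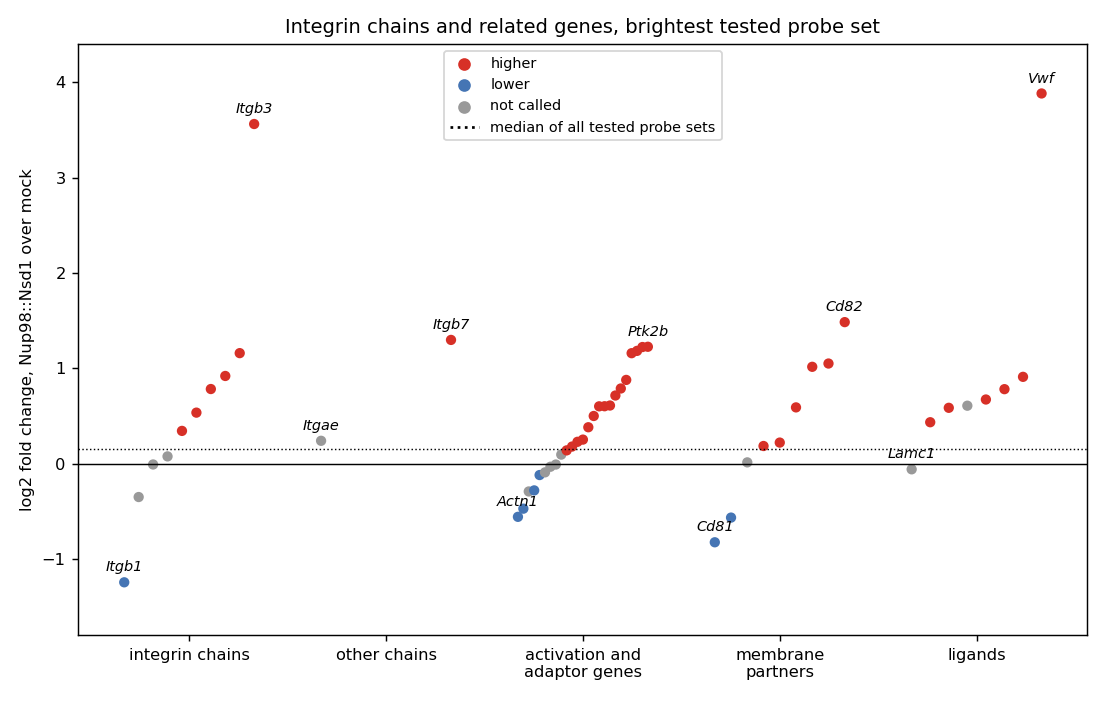
Log2 fold change (Nup98::Nsd1 over mock) of each tested gene at its brightest tested probe set, for the 10 integrin chains and 4 related lists, with genes ordered by value and the extremes named. Itgb3 and Vwf stand at 3.56 and 3.88, and Itgb1 at -1.24 is the lowest point shown.

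Some platelet and megakaryocyte markers were higher together with Itga2b and Itgb3. Of 8 such markers, 6 were measured and 3 tested, and all 3 were called higher, where 42.9% of all genes were: Pf4, platelet factor 4, 4.83-fold (566 ± 36.1 to 2729 ± 131), Gp9, a subunit of the von Willebrand factor receptor, 2.54-fold (146 ± 18.0 to 368 ± 23.8), and Vwf. The summed signal of the 6 ran from 810 to 977 on mock and from 3477 to 3640 on Nup98::Nsd1 arrays, most of it from Pf4. Gp1bb and Gp6 were Present on no array, and Ppbp, Present on 1 mock array, was not tested. Vwf, Present on 2 mock arrays, passed the detection filter only through the Nup98::Nsd1 arrays. The marker list was chosen with earlier results of these data known, so the count of 3 is no test of the set. The part of these markers in the rise of Itgb3 was not tested. Of the markers of other cells, 1 of 5 T and NK cell genes was tested and was lower (Nkg7, log2 fold change -2.38). For B cells, 1 of 4 measured genes was tested and not called, and 0 of 5 fibroblast genes were tested. Of 3 measured erythroid genes 2 were tested and 1 was lower, where 29.5% of all genes were.

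The genes whose pattern was most like each of these chains were found by the root mean square difference of log2 signals, less the mock mean, over the 6 arrays and 9641 genes. Closest to Itgb3 were Clec10a, a lectin receptor, Selenbp1, a selenium-binding protein, and Tjp1, the tight junction protein ZO-1, at 0.131, 0.173 and 0.185 log2 units. Their signals averaged 69.7, 120 and 28.1 on mock and 787, 1502 and 367 on Nup98::Nsd1 arrays. Clec10a was Present on no mock array, Tjp1 on 1 and Itgb3 itself on 2, so the order of these 3 rests partly on signals near background. Closest to Itga2b were Lgals8, which encodes galectin-8, Uri1, a prefoldin-like chaperone subunit, and Cytip, a cytohesin-binding protein, at 0.0147, 0.0334 and 0.0359, with log2 fold changes of 1.17, 1.16 and 1.12. With 6 arrays in 2 groups, likeness of this kind rests on the size of the group difference.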

How the data were processed

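RNA of 6 samples was hybridised to 1 array each. Per the labels, the authors used MAS5; its version was not given in the sources used here. Per the file headers, the deposited columns are a scaled signal (an intensity on a linear scale), a detection p-value and a detection call. Trimmed by 2%, the signals of each array averaged 500.003, and the deposited series matrix held the same intensities within a relative difference of 5.0e-06.

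Control probe sets (64) were left out. Symbols came from the platform annotation, updated through Entrez identifiers. A floor of 1 was set before the log2, and arrays were not rescaled. limma 3.58.1 (R 4.3.3) with an intensity trend was fitted to 20494 probe sets Present on all 3 arrays of a group, with Benjamini-Hochberg adjustment over these and a threshold of 0.05. A gene was represented by its brightest tested probe set. Ratios of chains were tested by exact permutation (scipy 1.17.1). The fit was also run on simulated data, with changes in a small part of the probe sets and spreads shuffled between them. In these data 69.9% of the tested probe sets were called, so that run does not show how the fit performs here. Chain partners, gene and marker lists were chosen with earlier results of these data known. All probe sets of the members are given. Of each further list up to 4 called genes with the smallest p were named, and also the adaptor genes that fell. The other chains were all named, each tested one with its values. The 3 genes closest to Itgb3 and to Itga2b were named too. The number of arrays limits precision. Alternatives were another pseudocount (16 or 64), detection filter, scaling, variance model, array weights, a replicate block, averaging the probe sets of each gene, the series matrix and leaving out each array.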

Additional observations from a re-analysis of the deposited data

Results flagged for a closer look

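Of the integrin probe sets too rarely called Present to be tested, 2 gave a higher signal on each Nup98::Nsd1 array than on any mock array. The second Itgb3 probe set, 1421511_at, averaged 92.9 ± 34.2 against 7.03 ± 1.89 and was Absent on all 6 arrays. The Itgav probe set 1432678_at averaged 58.0 ± 13.6, Present on 1 array, against 20.4 ± 6.86, Present on none. With so few Present calls, no fold change is given.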

How the results depend on the processing

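Over 340 refits of the 19 integrin probe sets under other settings, 300 kept their direction and their side of the threshold. With the sign kept, 17 lost a call and 7 gained one. The remaining 16 changed sign, some of them with a change of call as well. Itgb3 (2.62 to 3.76), Itga2b (0.79 to 1.28), the brightest probe sets of Itgav (0.42 to 0.84), Itgal (0.55 to 0.99) and Itga4 (0.17 to 0.60) and the 2 brighter ones of Itgb1 (-1.61 to -1.17 and -1.46 to -1.02) kept direction and call in each setting run. Signs changed with quantile normalization for Itgav 1421198_at (-0.041), Itga6 1422445_at (0.092), Itgal 1425367_at (-0.13) and Itgam (-0.0045). The same held for Itgae (-0.16), which is outside the 19 probe sets. With 75th percentile centring Itgal 1425367_at and Itgam were at -0.11 and -0.12, and with median centring at -0.084 and -0.093. With hybridization control scaling, Itgav 1421198_at, Itga4 1456498_at, Itga6 1422444_at, Itgal 1425367_at, Itgam, Itgb2 and Itgae were at -0.070, -0.13, -0.039, -0.28, -0.29, -0.022 and -0.13. Leaving out mock replicate 1 or Nup98::Nsd1 replicate 2 turned Itga6 1422445_at to 0.021 and 0.014, in a range of -0.041 to 0.021 over single arrays left out. The cause was not tested.

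Integrin probe sets called higher were 5 with 75th percentile centring and under hybridization control scaling, which gave 9 lower. Integrin genes called lower were 2 with quantile normalization and with median centring, 3 with 75th percentile centring and 4 with hybridization control scaling. Other chains called higher were 2 with no detection filter and with no intensity trend. Adaptor genes higher and lower were 10 and 8 with 75th percentile or median centring and 7 and 13 with hybridization control scaling, which also gave 4 membrane proteins and 1 ligand lower, and 4573 higher and 9586 lower over all tested probe sets. Taken at the brightest probe sets or at the mean of the probe sets of each gene, the 8 pair ratios kept their direction in each setting run, whereas other probe sets turned Itga4 to Itgb1 to -0.081 and Itgal to Itgb2 to -0.26; leaving out arrays gave -2.60 to -2.23 for Itga2b to Itgb3 and 1.99 to 2.08 for Itgav to Itgb1. Averaging probe sets moved Itga4 to Itgb1 to 0.87 and Itgal to Itgb2 to 0.16, and quantile normalization moved Itga5 to Itgb1 to 0.55.

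Replicate numbers did not pair the arrays: deviations of same-numbered arrays correlated at -0.017, -0.011 and 0.021 over tested probe sets. With the replicate number as a block, 8628 probe sets were higher and 5629 lower, and 9 and 5 among the integrins. Signals near the limit of detection, as of Itgb3 on mock arrays and of Itga5, bound the precision of their folds.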
